A study of Mus musculus with 4 samples.

Results

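Genes that mark the bone, tendon and cartilage lineages were followed in mouse inguinal white fat, in its stromal vascular fraction, which is what is left of the dissociated tissue once the adipocytes are removed. The 10 genes were picked by symbol from a table of 55536 genes, and all 10 were found. For bone they are the alkaline phosphatase gene Alpl, the transcription factor genes Runx2 and Sp7, Spp1, which encodes osteopontin, and Mgp, which encodes matrix Gla protein. For tendon they are Scx, Mkx and Tnmd, and for cartilage Sox9 and Acan. They were proposed with results of the same 4 libraries in view, so every difference of these 10 genes is given as a description, with no test.

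The 4 libraries came from wild-type male mice aged 21 days after birth, with 3 mice pooled per library. One library is labelled LnF1 with Water, one LnF1 with 1,3BD, one ObF1 with Water and one ObF1 with 1,3BD. LnF1 and ObF1 are the offspring groups of a series on obesity of the parents, and 1,3BD is spelled as in the labels. Where 4 values follow one another without names, they are in a fixed library order, LnF1 before ObF1 and, within each, water before 1,3BD. No group has a replicate, so the spread between animals was not measured, and the intervals given with values cover counting error only. In bulk RNA, fewer cells of a type and less RNA per cell cannot be told apart.

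Mesenchymal progenitors are the common source of fat, bone, tendon and cartilage cells. RUNX2 commits such cells to the osteoblast lineage and SP7, also called osterix, acts after it. Scleraxis, encoded by Scx, and the homeobox protein of Mkx direct tendon cells, in which tenomodulin, the product of Tnmd, appears late. SOX9 directs cartilage formation, and aggrecan, encoded by Acan, is the large proteoglycan of cartilage matrix. Alkaline phosphatase removes pyrophosphate, which blocks mineral, while matrix Gla protein restrains calcification and osteopontin binds mineral, integrins and CD44. In fat, tenomodulin is also known from progenitors and adipocytes, and osteopontin from macrophages.

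RefSeq start sites of 5 of the 10 genes (Alpl, Spp1, Acan, Runx2 and Tnmd) were available on GRCm38.p6, the build also called mm10. The 250 bases upstream of the start are shown for Alpl, the gene with the largest difference upward with 1,3BD, at both of its start sites, and for Tnmd and Spp1, which stood lower with it. Capitals mark a match on either strand to the TATA box, written TATAAA, to the GC box, with the letters GGGCGG, or to the core recognised by RUNX factors, which reads TGTGGT. Alpl start 1 lies on the minus strand at chr4:137796385-137796634, Alpl start 2 on the minus strand at chr4:137766476-137766725, Spp1 on the plus strand at chr5:104434861-104435110 and Tnmd on the plus strand at chrX:133850758-133851007.
Alpl start 1: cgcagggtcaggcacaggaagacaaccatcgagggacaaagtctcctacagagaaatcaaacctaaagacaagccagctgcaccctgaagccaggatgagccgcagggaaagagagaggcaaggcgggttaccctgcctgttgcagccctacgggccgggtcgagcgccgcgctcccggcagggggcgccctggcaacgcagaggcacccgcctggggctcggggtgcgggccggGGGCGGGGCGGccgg
Alpl start 2: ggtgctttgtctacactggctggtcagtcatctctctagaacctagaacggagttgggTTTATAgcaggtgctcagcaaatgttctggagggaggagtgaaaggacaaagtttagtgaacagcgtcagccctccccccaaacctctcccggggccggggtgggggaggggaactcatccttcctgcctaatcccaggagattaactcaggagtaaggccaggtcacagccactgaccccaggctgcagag
Spp1: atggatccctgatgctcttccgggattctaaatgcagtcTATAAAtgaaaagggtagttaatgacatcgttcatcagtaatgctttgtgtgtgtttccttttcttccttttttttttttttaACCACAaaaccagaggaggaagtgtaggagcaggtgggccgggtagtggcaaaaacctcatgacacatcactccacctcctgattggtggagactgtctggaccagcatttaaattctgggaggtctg
Tnmd: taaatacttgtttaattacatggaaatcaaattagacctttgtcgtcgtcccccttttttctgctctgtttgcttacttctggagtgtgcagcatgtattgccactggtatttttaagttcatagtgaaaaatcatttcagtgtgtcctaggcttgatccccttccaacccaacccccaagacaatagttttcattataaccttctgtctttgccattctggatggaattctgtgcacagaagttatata
The upstream start of Alpl has a GC content of 68.4%, against a median of 52.4% over all 32851 windows, and ends in 2 GC boxes that share 1 base. GGGCGG occurred in 32.7% of all windows. Alpl start 2 has 1 TATA box match, on the opposite strand 192 bases upstream, and a GC content of 56.0%. Spp1 has 1 RUNX core, 128 bases upstream and read on the opposite strand as ACCACA, a motif found in 14.0% of windows, and 1 TATAAA, found in 12.4%. A second Spp1 start, downstream of the first, has neither motif in its window at chr5:104435942-104436191. Runx2 itself has 1 RUNX core, 80 bases upstream of its start. The Tnmd window holds none of the 3 motifs and no E-box (CANNTG), which 66.2% of windows hold, while both Alpl windows, Spp1, Acan and Runx2 hold at least 1 E-box. A match in these letters is a description and not a binding site.

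Values are CPM scaled by the authors' factor for each library (scaled CPM), and the libraries hold 24586827 to 26000090 recovered reads, so that 1 read is worth 0.0359 to 0.0435 CPM. Log2 differences are on the log2(CPM + 0.0796) scale. Of the 10 genes, 6 had at least 1 CPM in at least 2 libraries and entered the comparison with the 12838 genes that met this filter. The other 4, Sp7, Scx, Mkx and Acan, did not, and no share of the set is drawn from the 6 that did.

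**Figure D1:**
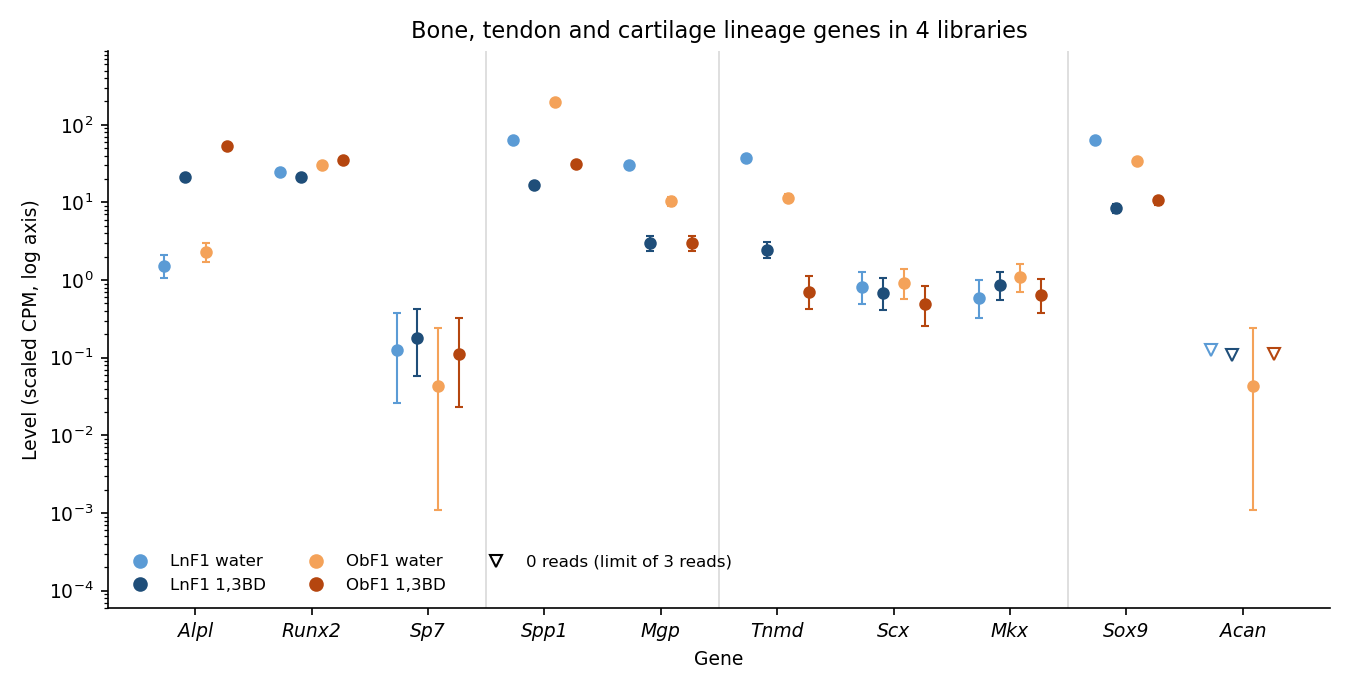
Level of each of the 10 genes (vertical axis, scaled CPM on a log axis) in the 4 libraries; each point is 1 library and bars are exact 95% Poisson intervals, while open triangles mark 0 reads at the limit of 3 reads. Alpl lies higher in both 1,3BD libraries, Spp1, Mgp, Tnmd and Sox9 lie lower in both, Runx2 spans 21.1 to 35.4 CPM, and Sp7 and Acan stay at or under 5 reads.

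The bone genes did not differ in one way. Alpl was the gene that stood apart with 1,3BD. It had 36 reads and 1.53 CPM (95% interval 1.07 to 2.12) in LnF1 water, 21.01 CPM (19.4 to 22.8) in LnF1 1,3BD, 2.30 CPM (1.73 to 3.01) in ObF1 water and 53.4 CPM (50.6 to 56.2) in ObF1 1,3BD. Both 1,3BD libraries were thus above both water libraries, and ObF1 1,3BD was the highest. With 1,3BD the level was 13.8-fold higher in LnF1 (9.82 to 19.8) and 23.2-fold higher in ObF1 (17.6 to 31.1), log2 differences of 3.71 and 4.49. Counting Alpl itself, 27 of 12838 genes had a log2 difference at least as large in LnF1 and 20 in ObF1. Between the parental groups Alpl was 2.54-fold higher in ObF1 with 1,3BD (2.31 to 2.80). In water the ratio was 1.51 with an interval of 0.969 to 2.37, which includes no difference at this depth. The gene lies on chromosome 4 from 137741733 to 137796384 on the minus strand, and no other annotated gene overlaps it.

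Runx2 stayed within a narrow range, while Sp7 was at the detection limit. Runx2 (chromosome 17, 44495987 to 44814797, minus strand) had 25.04 CPM in LnF1 water (23.1 to 27.2), 21.1 in LnF1 1,3BD (19.4 to 22.9), 30.6 in ObF1 water (28.4 to 33.0) and 35.4 in ObF1 1,3BD (33.2 to 37.8). Its highest library was 1.68-fold above its lowest, and both ObF1 libraries lay above both LnF1 libraries. The log2 difference with 1,3BD was -0.25 in LnF1 and 0.21 in ObF1. With library totals in place of the authors' factors, the LnF1 difference turned to 0.0080 and the ObF1 difference to 0.45. Against LnF1, ObF1 was 1.22-fold higher in water (1.10 to 1.37) and 1.68-fold higher with 1,3BD (1.52 to 1.87). One antisense gene, Runx2os1, shares 519 exon bases with Runx2, but it had only 6 to 17 reads in a library. Supt3, on the opposite strand, shares no exon base with Runx2 and had 265 to 355 reads. Sp7 had 3, 5, 1 and 3 reads in library order, a maximum of 0.179 CPM, so no difference was detectable at this depth.

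Spp1 and Mgp, the matrix genes, were both lower with 1,3BD but differed in opposite directions between the parental groups. Spp1 (chromosome 5, 104435118 to 104441050, plus strand) had 63.3 CPM in LnF1 water (60.2 to 66.6), 17.0 in LnF1 1,3BD (15.5 to 18.6), 196 in ObF1 water (190 to 202) and 31.3 in ObF1 1,3BD (29.2 to 33.5). Both water libraries were above both 1,3BD libraries, and ObF1 was above LnF1 in each drink. The level with 1,3BD was 3.73-fold lower in LnF1 (3.37 to 4.15) and 6.26-fold lower in ObF1 (5.81 to 6.75). Against LnF1, ObF1 was 3.10-fold higher in water (2.92 to 3.28), a difference that 132 of 12838 genes matched or exceeded, and 1.85-fold higher with 1,3BD (1.65 to 2.07). Spp1 shares 309 exon bases with the gene model Gm42793, which had at most 2 reads.

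Since osteopontin is also made by macrophages, the leukocyte and macrophage list is given beside it. Its 10 markers summed to 26.4 CPM in LnF1 water, 5.59 in LnF1 1,3BD, 16.3 in ObF1 water and 10.01 in ObF1 1,3BD. Lyz2, with 12.2, 1.33, 7.26 and 4.95 CPM in library order, and Mrc1, with 6.28, 0.323, 0.608 and 0.150 CPM, made up most of the sum in LnF1 water. Csf1r, the macrophage growth factor receptor gene, had 4.33, 1.22, 6.13 and 0.900 CPM and was highest in ObF1 water, as Spp1 was. Cd68 of the same list had 1.32, 1.47, 0.956 and 2.14 CPM and was lowest in ObF1 water. The part of macrophages in the Spp1 level was not tested. Of these markers 5 stayed under 1 CPM in every library, among them Ptprc of all white blood cells with at most 0.150 CPM. Cd3e of T cells had 0 reads throughout, which allows up to 0.130 CPM in a library.

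Mgp (chromosome 6, 136872435 to 136875823, minus strand) had 30.6 CPM in LnF1 water (28.4 to 32.9), 2.98 in LnF1 1,3BD (2.37 to 3.69), 10.3 in ObF1 water (9.03 to 11.7) and 2.96 in ObF1 1,3BD (2.35 to 3.69). LnF1 water was the highest and the 1,3BD libraries could not be told apart. With 1,3BD the level was 10.3-fold lower in LnF1 (8.18 to 13.1) and 3.48-fold lower in ObF1 (2.68 to 4.54). In water, ObF1 was 2.97-fold lower than LnF1 (2.56 to 3.46), and with 1,3BD the ratio was 1.01 with an interval of 0.729 to 1.39. The log2 differences with 1,3BD, -3.33 in LnF1 and -1.77 in ObF1, lay 1.56 apart, and 418 of 12838 genes (3.26%) had differences at least that far apart.

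Of the tendon genes, only Tnmd exceeded 2 CPM in any library, and it was lower with 1,3BD and lower in ObF1. Tnmd (chromosome X, 133850980 to 133865577, plus strand) had 37.8 CPM in LnF1 water (35.4 to 40.4), 2.47 in LnF1 1,3BD (1.93 to 3.13), 11.3 in ObF1 water (10.01 to 12.8) and 0.713 in ObF1 1,3BD (0.429 to 1.11, from 19 reads). No 2 of these intervals overlap, and the highest library was 53.1-fold above the lowest. With 1,3BD it was 15.3-fold lower in LnF1 (12.0 to 19.8) and 15.9-fold lower in ObF1 (9.99 to 26.9). The log2 differences were -3.89 and -3.85, only 0.042 apart, and 93.4% of the 12838 genes had differences at least that far apart. Against LnF1, ObF1 was 3.34-fold lower in water (2.90 to 3.84) and 3.47-fold lower with 1,3BD (2.07 to 6.11). Counting Tnmd itself, 90 genes had a log2 difference as low in water and 81 with 1,3BD.

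Both tendon transcription factor genes had few reads. Scx had 19 reads in LnF1 water, 19 in LnF1 1,3BD, 21 in ObF1 water and 13 in ObF1 1,3BD, which is 0.488 to 0.912 CPM. Mkx had 14, 24, 25 and 17 reads in the same order, which is 0.594 to 1.09 CPM. Neither gene differed beyond counting error in any of the 4 pairs of libraries. The largest ratios were 1.87 for Scx, lower with 1,3BD in ObF1 (0.894 to 4.07), and 1.83 for Mkx, higher in ObF1 in water (0.914 to 3.80), so smaller differences than these were not detectable at this depth. Scx lies within the span of Bop1, on the opposite strand, shares no exon base with it, and had far fewer reads than the 649 to 1418 of Bop1. Because the use of strand is not stated, reads of such partners could not be separated by strand.

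Among the cartilage genes, Sox9 was well expressed while Acan was not. Sox9 (chromosome 11, 112782224 to 112787760, plus strand) had 63.5 CPM in LnF1 water (60.3 to 66.8), 8.43 in LnF1 1,3BD (7.38 to 9.58), 34.6 in ObF1 water (32.2 to 37.1) and 10.6 in ObF1 1,3BD (9.41 to 11.9). Both water libraries were above both 1,3BD libraries. With 1,3BD it was 7.53-fold lower in LnF1 (6.56 to 8.68) and 3.26-fold lower in ObF1 (2.84 to 3.75). Its log2 differences with 1,3BD lay 1.20 apart, and 889 of 12838 genes (6.92%) had differences at least that far apart. ObF1 was 1.84-fold lower than LnF1 in water (1.68 to 2.002) but 1.26-fold higher with 1,3BD (1.06 to 1.504). On the log2 scale the latter was 0.33, and 0.22 with library totals in place of the authors' factors. Acan had 1 read, in ObF1 water, and 0 reads in the other 3 libraries, which allows up to 0.127 CPM in LnF1 water, 0.108 in LnF1 1,3BD and 0.113 in ObF1 1,3BD.

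Only the 6 genes that met the filter were eligible for the counts that follow. Counted by size, 1 of the 10 genes (Alpl) was at least 2-fold higher with 1,3BD in both parental groups, where 7.37% of the 12838 filtered genes were. Lower by at least 2-fold in both were 4 (Spp1, Mgp, Tnmd and Sox9), where 12.6% of filtered genes were. For ObF1 against LnF1 in both drinks, 0 of the 10 were at least 2-fold higher, against 0.732% of filtered genes, and 1 (Tnmd) was at least 2-fold lower, against 0.537%. For 2 genes, Mgp and Sox9, the 1,3BD difference itself differed at least 2-fold between LnF1 and ObF1, where 10.9% of filtered genes did. Without the filter this count was 3. The genes were proposed with these contrasts in view, so nothing is read from these shares.

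**Figure D2:**
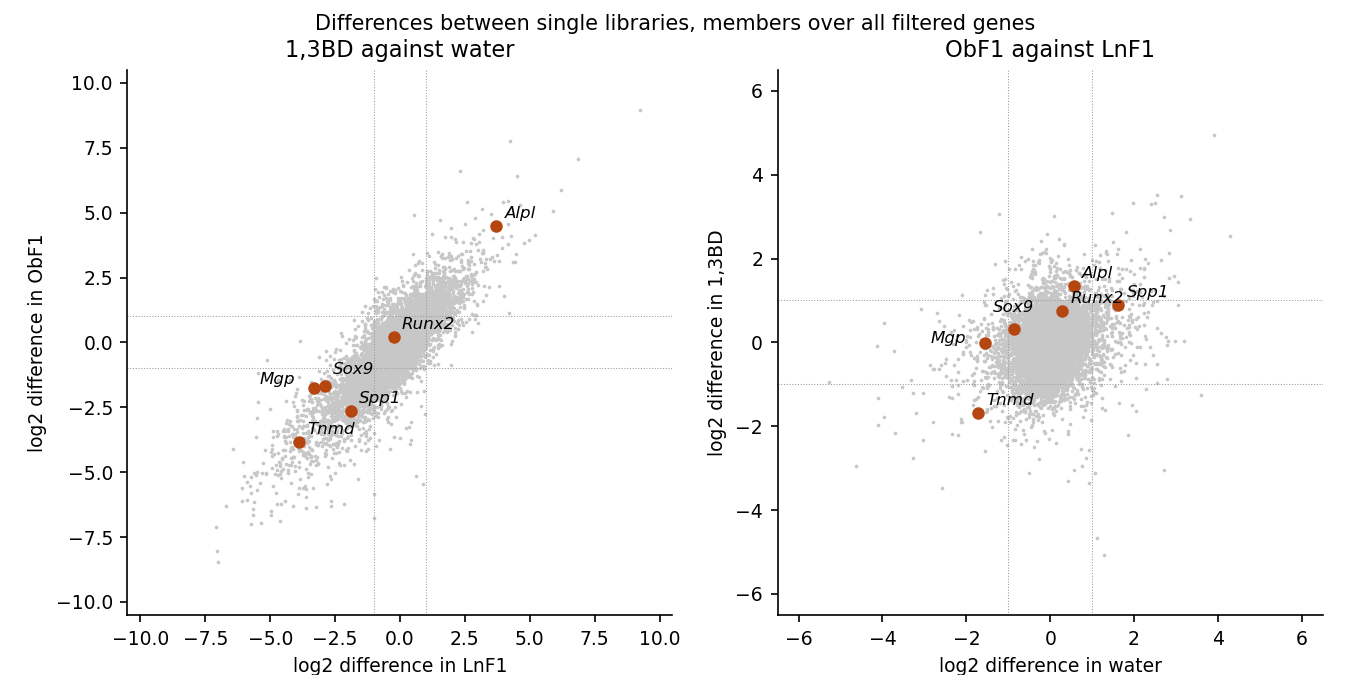
Log2 differences between single libraries for the 6 genes that met the filter (orange, named) over all 12838 filtered genes (grey); left, 1,3BD against water in LnF1 (horizontal) and ObF1 (vertical), right, ObF1 against LnF1 in water (horizontal) and with 1,3BD (vertical), with dotted lines at 2-fold. Alpl lies at 3.71 and 4.49 on the left, Tnmd at -3.89 and -3.85 on the left and at -1.73 and -1.69 on the right.

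Per kilobase of exon, which allows levels of different genes to be compared, the order of the genes changed between the libraries. In LnF1 water the highest level was that of Spp1, with 38.4 CPM per kb, followed by Tnmd with 28.0, Mgp with 25.8 and Sox9 with 15.4. The intervals of Tnmd (26.2 to 29.9) and Mgp (23.9 to 27.7) overlapped. Runx2 had 2.83, and Scx (0.402) and Alpl (0.379) overlapped far below it. In ObF1 1,3BD, Spp1 was again first with 19.0 CPM per kb, but Alpl was second with 13.2, ahead of Runx2 with 4.01. Sox9 (2.57) and Mgp (2.496) overlapped there, and Tnmd had 0.527. Spp1 reached its highest level, 119 CPM per kb, in ObF1 water, where Tnmd had 8.38, Mgp 8.68 and Sox9 8.36, with overlapping intervals.

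The profiles of the 6 expressed genes over the 4 libraries were compared with those of 9914 other genes with a mean of at least 5 CPM, after gene models named only by a number or ending in Rik were left out. The measure was the root-mean-square distance between log2 levels, each centred on its own mean, so a small distance means a like pattern over these 4 libraries and no more. Nearest to Alpl were Prl2c3 (distance 0.336), one of several nearly identical prolactin-family copies and so uncertain, Gclc of glutathione synthesis (0.348) and the metallothionein gene Mt1 (0.365). Gclc had 24.5, 443, 27.2 and 638 CPM in library order. Nearest to Spp1 were Cd80 (0.150), a co-stimulatory ligand of antigen-presenting cells, the netrin gene Ntn4 (0.172) and Cd53 (0.173), a tetraspanin gene of leukocytes. Cd53 had 4.63, 0.897, 14.99 and 2.29 CPM in library order, and the part of leukocytes in the Spp1 pattern was not tested.

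Nearest to Mgp were Stard10 (0.163), Pdgfrl (0.210) and Islr (0.219). Sox9 had as neighbours Arhgap28 (0.0850), Anpep (0.0930), which encodes aminopeptidase N, and the angiopoietin receptor gene Tek (0.0990). Tnmd was farther from its neighbours, the collagen gene Col28a1 (0.340), the matrix gene Smoc2 (0.361) and Steap3 (0.382). Runx2 lay close to Med19 (0.025), Cnrip1 (0.027) and Lsm12 (0.042), genes that, like it, varied little. Among the 6 genes themselves, Mgp and Sox9 were the nearest pair, at 0.299, while Alpl was no closer than 2.07 to any of the other 5.

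Other genes of the 3 lineages, in lists that leave out the 10, show what else of these programmes was present. Of 78 such genes, 42 met the filter and 9 had 0 reads in all 4 libraries. With 1,3BD, 4 of the 42 rose and 22 fell by limma at an adjusted p under 0.05, where 19.2% of all 12838 genes were called higher and 24.8% lower. Their median log2 difference was -0.80, against -0.060 over all genes tested. The lists were written with earlier results of these data known, so nothing is read from these shares or medians. With library totals in place of the authors' factors, which moved the median gene by 0.25 in LnF1 and 0.24 in ObF1 with 1,3BD, 6 rose (Ggcx and Sox5 in addition) and 17 fell, and over all genes 3665 rose and 2283 fell, against 2466 and 3189. The same scaling moved the median gene by -0.10 in water and -0.11 with 1,3BD for ObF1 against LnF1. The fit has 1 residual degree of freedom, which comes from how far the 1,3BD difference in LnF1 departs from that in ObF1. In limma each gene's error is drawn toward a trend over all genes, so a printed SE is not that gene's own departure alone. Neither measures the spread between animals.

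Of the bone matrix genes, those of collagen I were abundant and fell with 1,3BD. Of 13 genes in the bone matrix list, which includes the receptor gene Pth1r, 5 were tested, and all 5 fell with 1,3BD (median -1.91). Col1a1, a chain of the main collagen of bone, skin and tendon, had 16522, 4307, 18761 and 3371 CPM in library order, and its fitted log2 value was -2.21 with an SE of 0.28 (limma adjusted p = 0.000119). Col1a2 (-1.91), Pth1r, the parathyroid hormone receptor (-2.20), and Omd, which encodes osteomodulin (-1.91), fell as well. The Omd call was lost in DESeq2 (adjusted p = 0.114). The osteocyte genes Dmp1 and Sost had 0 reads. Among 10 osteoblast transcription factor genes, 6 were tested (median -0.18). Runx1, a relative of Runx2, fell by 0.98 on the log2 scale with an SE of 0.22 (limma adjusted p = 0.00395), while Cbfb, the partner of RUNX proteins, had a difference of 0.17 (limma adjusted p = 0.527).

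No other gene of pyrophosphate and phosphate handling was called higher alongside the higher level of Alpl. Of 12 mineralisation enzymes, transporters and inhibitors 8 were tested, 0 rose, 2 fell and 6 did not pass (median -0.52). Fam20c, a kinase of secreted proteins, fell by 1.35 and Slc20a1, a phosphate transporter, by 0.81 on the log2 scale. The Slc20a1 call was lost with library totals (-0.56, limma adjusted p = 0.0680). Enpp1, which makes pyrophosphate, had 8.57, 8.54, 25.9 and 8.66 CPM in library order, and Ank, which exports it, 31.2, 36.4, 38.2 and 32.5 CPM. Neither passed (limma adjusted p = 0.101 for Enpp1 and 0.985 for Ank). Ggcx, whose enzyme carboxylates matrix Gla protein, did not pass either, with 0.38 on the log2 scale (limma adjusted p = 0.162), but it was called higher with library totals. Enpp1 was called lower without a filter on low values and in the fit without LnF1 water.

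Of 9 osteopontin receptor genes 8 were tested, 6 fell with 1,3BD, 0 rose and 2 did not pass (median -1.07). Those that did not pass were Itgav (-0.16, limma adjusted p = 0.531) and Itga5 (-0.49, limma adjusted p = 0.373), which were named after their values were seen, and Itga5 had 357, 463, 834 and 327 CPM in library order. Integrin genes Itga8 (-2.82) and Itga9 (-2.76), Cd44 (-1.97) and Itgb5 (-1.32) fell most. Cd44 had 242, 71.6, 441 and 96.8 CPM in library order, so that ObF1 water was the highest, as for Spp1.

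Of the tested tendon genes most fell, and most cartilage genes were too low to be tested. Of 13 tendon genes 10 were tested, and 7 fell with 1,3BD, 0 rose and 3 did not pass (median -1.37). Col14a1, a fibril-associated collagen gene, had 108, 7.17, 66.8 and 1.28 CPM in library order, and its fitted log2 value was -4.76 with an SE of 0.39 (limma adjusted p = 5.38e-05). Tnc, which encodes tenascin C (-3.55), and Fmod, which encodes fibromodulin (-2.03), fell too, and Kera of keratocan had 0 reads. Cilp, a cartilage intermediate layer protein gene, had 37, 8, 135 and 0 reads in library order. Its call (limma adjusted p = 0.0126) was lost in DESeq2 (adjusted p = 0.0876), and with 0 reads in ObF1 1,3BD its fitted log2 value depends on the pseudocount, -4.20 with 2 reads and -5.29 with 0.5 reads. Of 21 cartilage genes only 5 were tested, with a median of 1.63. Prg4, the lubricating proteoglycan gene of joint surfaces, rose, with 1.40, 174, 3.22 and 436 CPM in library order and a fitted log2 value of 6.96 with an SE of 0.23 (limma adjusted p = 1.11e-08). Trps1, a transcription factor gene of growth plate cartilage (2.15), and Col11a2 (1.63) rose, and Col11a1 fell by 0.68. The Col11a1 call was lost with library totals (-0.43, limma adjusted p = 0.177), with a mean of at least 5 CPM, in edgeR and in DESeq2. Collagen II, the main collagen of cartilage, was hardly detected, with Col2a1 at most 0.478 CPM, and Matn1 had 0 reads.

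**Figure D3:**
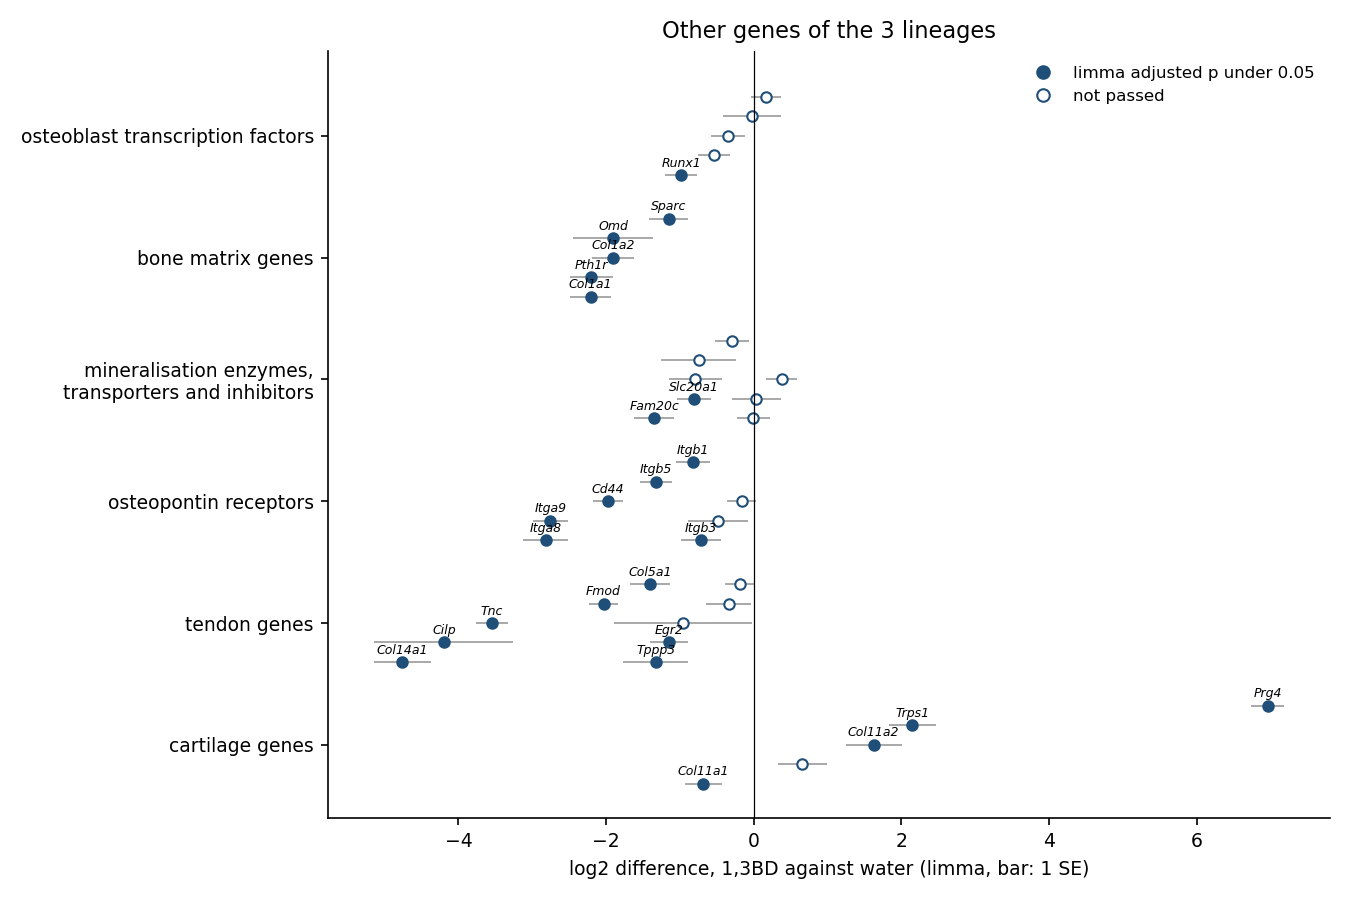
Log2 difference of 1,3BD against water (horizontal axis, limma, bars 1 SE) for tested genes of the 6 lineage lists, each point 1 gene; filled points passed an adjusted p under 0.05 and are named. All 5 tested genes of the bone matrix list lie below 0, and Prg4 lies at 6.96.

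Between the parental groups, 0 of the 42 genes passed in either direction (limma), where 0.195% of all genes were called higher in ObF1 and 0.101% lower. At an unadjusted p under 0.05, 9 were higher and 3 lower. The share of all genes at that unadjusted threshold was not counted, so nothing is read from these counts. By edgeR 0 passed, and by DESeq2 Prg4 and Sox5, a SOX9 partner gene, were higher and Col14a1 was lower. Prg4 missed the threshold in limma with a fitted log2 value of 1.24 and an SE of 0.23 (limma adjusted p = 0.0506), and Sox5, which is outside the rule for named genes and was chosen after its values were seen, had 1.91, 3.95, 7.69 and 9.49 CPM in library order.

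Several calls for 1,3BD were lost in fits without 1 library. Such a fit also drops the parental term, so the effect of the library and that of the term cannot be told apart. With all 4 libraries and the parental term alone dropped, 3 genes of the lists rose and 18 fell, against 4 and 22. Over all genes 1866 rose and 2522 fell, against 2466 and 3189. Of the genes that the naming rule picks, Col11a2 (limma adjusted p = 0.0950) and Col11a1 (limma adjusted p = 0.0790) were lost. In each fit without 1 library, fewer genes of the lists were called than with all 4 libraries. Fewer were called over all genes as well, so the smaller number of calls is not read as a result about these genes. Trps1 failed in the fits without LnF1 water (1.36), LnF1 1,3BD (2.47) or ObF1 1,3BD (1.83), and Col11a2 in those without LnF1 water (1.95), LnF1 1,3BD (0.58) or ObF1 water (1.30). Omd failed without any 1 of the 4 libraries (-1.63 to -2.18), as Col11a1 did without each of 3 (LnF1 water, -0.52, LnF1 1,3BD, -0.34, and ObF1 water, -0.85). Slc20a1 failed without LnF1 water (-1.04), ObF1 water (-0.57) or ObF1 1,3BD (-0.77), and Fam20c without LnF1 water (-1.43) or ObF1 water (-1.26). Pth1r failed without LnF1 water (-1.86), and Runx1 (-0.69) and Cilp (-3.27) without ObF1 water.

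The labelled cell fraction was checked against marker lists. Pdgfra of adipose progenitors had 243, 281, 236 and 412 CPM in library order. It was the only gene of its list that was higher with 1,3BD in both parental groups. Cd34 and Ly6a were higher in ObF1 alone, and the others, such as Pdgfrb (538, 157, 716 and 154 CPM), were lower in both. The endothelial list of 6 genes summed to 27.0, 3.59, 30.1 and 5.63 CPM and the epithelial list of 5 to at most 0.174 CPM. Most of the endothelial sum in LnF1 water was Tek, also a neighbour of Sox9, with 19.9 CPM. In ObF1 water Tek was lower, with 11.6 CPM, while Pecam1, Cdh5, Kdr and Emcn were higher, and Cldn5 had at most 1 read. Blood and endothelial cells, usual parts of a stromal vascular fraction, were thus represented by few reads. Several lists were lower with 1,3BD, as Spp1, Mgp, Tnmd and Sox9 were, and their part in these results was not tested. The 7 mural and smooth muscle markers summed to 8383 and 8993 CPM in the water libraries and 193 and 226 CPM with 1,3BD, most of it Acta2. The 6 mature adipocyte markers went the other way, as Alpl did, with 6.11 and 8.56 CPM in water and 229 and 153 CPM with 1,3BD. Nearly all of that was Fabp4, while Adipoq and Lep had 0 reads. The 5 Schwann cell markers summed to 7.98, 3.01, 24.98 and 2.25 CPM. For osteoclasts, 6 markers summed to 107, 37.3, 93.8 and 31.4 CPM, nearly all Ctsk, and Dcstamp had 0 reads. For skeletal muscle, Acta1 made up most of the 86.6, 1.83, 62.0 and 1.88 CPM, while Myf5 and Myh4 had 0 reads. Adipose progenitor markers, 12 in all, summed to 4219, 2013, 5303 and 2674 CPM, lower with 1,3BD in both parental groups. The largest part was Itgb1, which is also on the osteopontin receptor list.

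**Figure D4:**
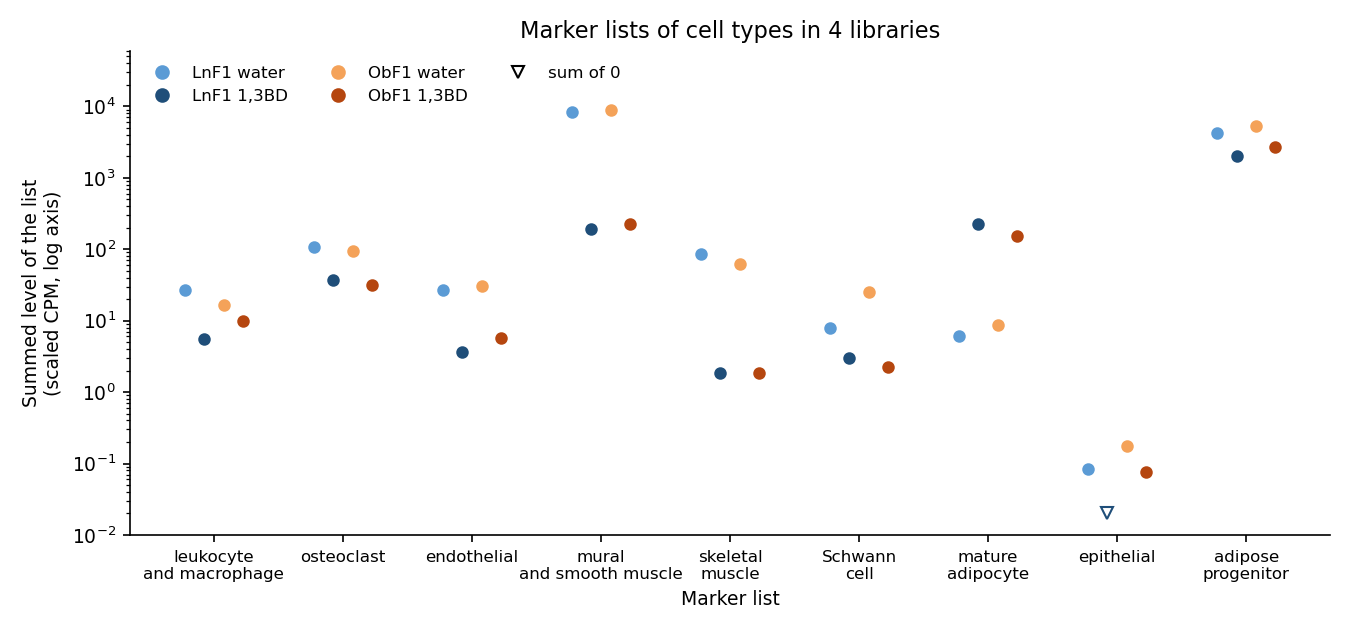
Summed level of each of 9 marker lists (vertical axis, scaled CPM on a log axis) in the 4 libraries, each point 1 library, with an open triangle for a sum of 0. Mural and smooth muscle markers lie at 8383 and 8993 CPM in water and at 193 and 226 CPM with 1,3BD, and leukocyte, endothelial, Schwann cell and epithelial lists stay under 31 CPM.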

How the data were processed

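Extraction was by TRIzol and library preparation by a KAPA mRNA kit, per the labels' protocols. The submitters' processing notes name mm10, edgeR and DESeq2 without role or version, while the sources used here give no aligner, counter, annotation release or use of strand. Although its name calls it raw counts, the deposited table holds a scaled signal: all (100%) were whole multiples of the smallest value in their column within a relative tolerance of 1e-06, which gave back whole reads (24804006, 24586827, 26000090 and 25432747 in library order) and scaling factors of 0.950, 1.13, 0.885 and 1.05. The columns that name no drink were matched to water.

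The 10 genes and the lists were chosen with earlier results of these data known. Their levels carry exact 95% Poisson intervals, ratios of libraries exact conditional (Clopper-Pearson) intervals, and 0 reads a limit of 3 reads, all for counting error only. For the other genes, limma 3.58.1 (trend, robust) was fitted to log2(CPM + 0.0796), a pseudocount worth 2 reads, on the 12838 genes that reached 1 CPM in 2 or more libraries, additive in drink and parents, with Benjamini-Hochberg adjustment over all of them. It was also run on simulated data that held no difference between LnF1 and ObF1, so that run cannot show how it does on these libraries. On the recovered reads, edgeR 4.0.16 called 2649 genes higher and 2884 lower with 1,3BD, and DESeq2 1.42.0 was run as well. Named from each list were up to 4 genes that passed with the largest difference, every gene that passed for parents, and up to 2 defining genes with 0 reads or outside the filter. For each expressed member the 3 nearest profiles were named. Outside this rule, Cbfb, Enpp1, Ank and Ggcx were chosen after their values were seen. One called gene of the lists is counted but not reported here. Exon lengths and positions come from GENCODE M21 (GRCm38), and upstream windows from RefSeq (GRCm38.p6). Figures were drawn with matplotlib 3.10.9.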

Additional observations from a re-analysis of the deposited data

Results flagged for a closer look

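Some genes differed in opposite directions in the groups compared, each beyond counting error, and the difference between those directions was not tested, since no group has a replicate. Runx2 had a log2 difference with 1,3BD of -0.25 in LnF1 and 0.21 in ObF1. With library totals the first is not kept and the second is 0.45. Sox9 had a log2 difference of ObF1 against LnF1 of -0.87 in water and 0.33 with 1,3BD. With library totals the latter was 0.22. Counting intervals were not computed under that scaling, so it is not known whether 0.22 lies beyond counting error. For the same contrast, in water and with 1,3BD in turn, Col1a1 had 0.18 and -0.35, Col1a2 0.24 and -0.50, Itgb5 0.50 and -0.22, Cilp 1.85 and -2.20 (the latter set by the pseudocount, from 8 against 0 reads), and Col11a1 -0.33 and 0.68.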

How the results depend on the processing

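No paired analysis was possible because each group holds 1 library. The counts of the 10 genes at least 2-fold higher or lower with 1,3BD, or in ObF1, and of those whose 1,3BD difference differed 2-fold between LnF1 and ObF1, stayed within 1.5 times of those reported under library totals, RLE scaling, a pseudocount of 0.5 reads, no filter and a mean of at least 5 CPM. For single genes, library totals turned the Runx2 difference with 1,3BD in LnF1 from -0.25 to 0.0080 and that in ObF1 from 0.21 to 0.45. Spp1 and Sox9 kept their direction but also moved by more than their counting error. With 1,3BD, Spp1 went from -1.90 to -1.64 in LnF1 and from -2.64 to -2.40 in ObF1. Sox9 went from -2.90 to -2.65 in LnF1 and from -1.70 to -1.45 in ObF1. For ObF1 against LnF1 in water, Spp1 went from 1.63 to 1.53. The same scaling moved the median gene with 1,3BD by 0.25 in LnF1 and 0.24 in ObF1. For ObF1 against LnF1 in water it moved the median gene by -0.10. Among the 42 genes of the lineage lists, leaving out 1 library gave 1 to 3 higher and 11 to 17 lower with 1,3BD, against 4 and 22, and 0 higher and 0 lower in ObF1. In ObF1, where 0 and 0 had passed, 1 was higher with RLE scaling, 1 with a pseudocount of 0.5 reads and 1 with robust moderation off (Prg4 each time), 3 were higher and 2 lower without a filter, where 69 genes were tested, and 2 higher and 1 lower with DESeq2. The causes of these changes were not tested. Of the 20 genes of the lists that the naming rule picks, 10 kept their direction and call in every alternative, and the other 10 lost a call and kept their direction. Over all genes, library totals gave 3665 higher and 2283 lower with 1,3BD, against 2466 and 3189, and no filter gave 196 higher and 156 lower in ObF1, against 25 and 13. Depth limits Sp7, Scx, Mkx and Acan, which had 12, 72, 80 and 1 reads over the 4 libraries.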
